A study of Danio rerio with 61 samples.

Results

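The genes described here are the cytosolic ribosomal proteins of the adult zebrafish ventricle, chosen by symbol alone as genes named rpl or rps without the rps6k kinases. Of the 16890 genes with a deposited normalized value, 79 matched. By symbol alone, 43 were counted with the large subunit and 35 with the small subunit. The 43 include rpl7l1, and whether each product is part of the ribosome was not tested. The remaining 1, rps19bp1, is named for a partner of a ribosomal protein and is itself no part of the ribosome. The symbol rpl37 stands for 2 genes, one on chromosome 21 and one on chromosome 2. A further match, rpl26, had 1 count in all 61 libraries and no deposited normalized value, and it was not tested.

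Ventricles came from adult wild-type fish of 7 strains (KCL, WIK, TU, TL, SAT, NA and AB) that were uninjured or were collected at 1 or 7 days after cryo-injury (dpci), an operation in which a cold probe kills part of the ventricle wall. There were 21 uninjured, 19 1 dpci and 21 7 dpci libraries, each from 1 ventricle, with 3 fish per strain and stage except 2 for SAT and for TU at 1 dpci. The 3′ ends of mRNA were sequenced, so a count does not grow with gene length. Counts scaled to a common library size (CPM) also depend on which reads were assigned to a gene. How far this affects levels set side by side between genes was not tested. The study asked how strains differ in their response to injury. KCL was bred in the study's facility and the other strains were imported.

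The ribosome translates mRNA into protein and is built from ribosomal RNA and about as many different proteins as there are genes listed here. The proteins are assembled with the RNA in the nucleolus with the help of a separate group of assembly factors, and each ribosome takes in a single copy of nearly every protein, so the genes are expressed in near balance in most cells. Zebrafish keep several pairs of paralogs, such as rpl22 and rpl22l1, whose products can take the same place in the ribosome.

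Libraries held 2943684 to 5538019 counts, of which 991472 to 2146167 fell on genes outside the mitochondrial genome. In 6 libraries the labelled time did not match the stage in the title, which was followed here. Over the 500 genes whose strain means at 7 dpci differed most relative to the spread within strains, all 3 uninjured libraries labelled NA lay nearest to TU at 7 dpci, and all 3 labelled TU lay nearest to NA, whereas the uninjured libraries of the other strains lay nearest to their own. At 1 dpci, 1 library labelled NA and 1 labelled TU also lay nearest to another strain, SAT and NA. Stage results are therefore also given without the NA and TU strains. The mRNA of some cell type markers moved with the stage. None of 8 erythroid, 3 lymphocyte and 3 thrombocyte markers was called in any stage comparison. Of 7 endothelial and endocardial markers, 1 was called higher in 1 dpci against uninjured ventricles and 1 in 7 against 1 dpci. Cardiomyocyte markers summed to a median of 26286, 16177 and 23041 CPM in uninjured, 1 dpci and 7 dpci ventricles, with ranges of 19798 to 31707, 11014 to 22352 and 14476 to 30295 CPM. In 1 dpci against uninjured ventricles, 6 of 8 cardiomyocyte markers were lower, and 6 of 6 macrophage and 4 of 5 neutrophil markers were higher. Of all genes, 12.1% were lower and 16.2% higher in that comparison. At 7 dpci, 6 of 7 fibroblast and epicardial markers were higher than in uninjured ventricles, beside 4.48% of all genes. The part of these shifts in the results below was not tested, and in a bulk sample fewer cells of a type and less RNA per cell cannot be told apart.

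Ribosomal protein genes were among the abundant mRNAs of the ventricle. They took a median of 12.7, 13.8 and 13.1% of the nuclear counts in uninjured, 1 dpci and 7 dpci ventricles, with ranges of 10.3 to 16.3, 12.4 to 16.7 and 10.1 to 16.3%. Of the 79 genes, 73 averaged at least 100 CPM. The highest were rps2 at 1955 CPM, rps23 at 1273, rps27a at 1085, rpl37 on chromosome 21 at 1072 and rpl3 at 1061 CPM, averaged over 61 libraries. rps27a encodes a fusion of ubiquitin with a small subunit protein. The 6 genes under 100 CPM were rps27l at 45.01, rpl9 at 18.6, rpl37 on chromosome 2 at 8.63, rpl7l1 at 7.98, rps19bp1 at 5.99 and rps8b at 2.26 CPM. Whether a low count, such as that of rpl9, stands for little mRNA or for reads not assigned to the gene was not tested. Each of the 79 genes had at least 1 count in every library, and rps8b, at a lowest count of 1, was the thinnest.

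The abundant genes varied little between fish of 1 group and moved together. The SD of log2 CPM within groups had a median of 0.194 over the 73 genes at 100 CPM or more, against 0.287 over the 412 other nuclear genes at that level. After the group means were taken out, the median correlation over 3081 pairs of genes was 0.63 across 61 libraries, given as a description, because all genes of a library share its scaling and depth. The 9 genes whose correlation with the mean of the others was below 0.5 included all 6 genes under 100 CPM.

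One day after injury, the set as a whole barely moved, and 4 genes changed under both library scalings described below. rpl22l1 and rpl7l1 rose, and rps27.2 and rpl37 on chromosome 2 fell. With the libraries scaled by the trimmed mean of M values (TMM), 14 of 79 genes (17.7%) passed an adjusted p of 0.05 in edgeR's quasi-likelihood test in 1 dpci against uninjured ventricles, 2 higher and 12 lower and none past 2-fold, beside 28.3% of all genes called, 16.2% higher and 12.1% lower, and 10.9% past 2-fold. The median log2 fold change was -0.08 over the 79 genes and 0.07 over all genes, and 69 of the 79 lay within 0.2 of 0. Counted by symbol, the large subunit had 2 genes higher and 8 lower and the small subunit 4 lower. Without NA and TU, 15 genes were called, 13 of which were among the 14, and over all genes 4252 were called in place of 4772.

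The direction of most genes at 1 dpci depended on the scaling. Under TMM, 18 genes lay above 0 and 61 below. With each gene expressed as a share of the nuclear counts and no TMM factor, an alternative added after the data had been seen, 73 lay above and 6 below, and 32 genes were called higher and 2 lower, beside 24.3 and 5.98% of all genes. That scaling also moved the median of all genes to 0.27, so that the ribosomal protein median, at 0.15, again lay below it. The distance between the median of the 79 genes and the median of all genes was -0.14 under TMM and -0.12 with shares. The 4 genes named above were those called in the same direction under both. With 1 RUVg factor in the model, the type of correction that the study used, none of the 79 genes was called in any stage comparison, while the calls over all genes in 1 dpci against uninjured ventricles came to 64 in place of 4772. Of the variance of that factor, 77.7% lay between stages.

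**Figure D1:**
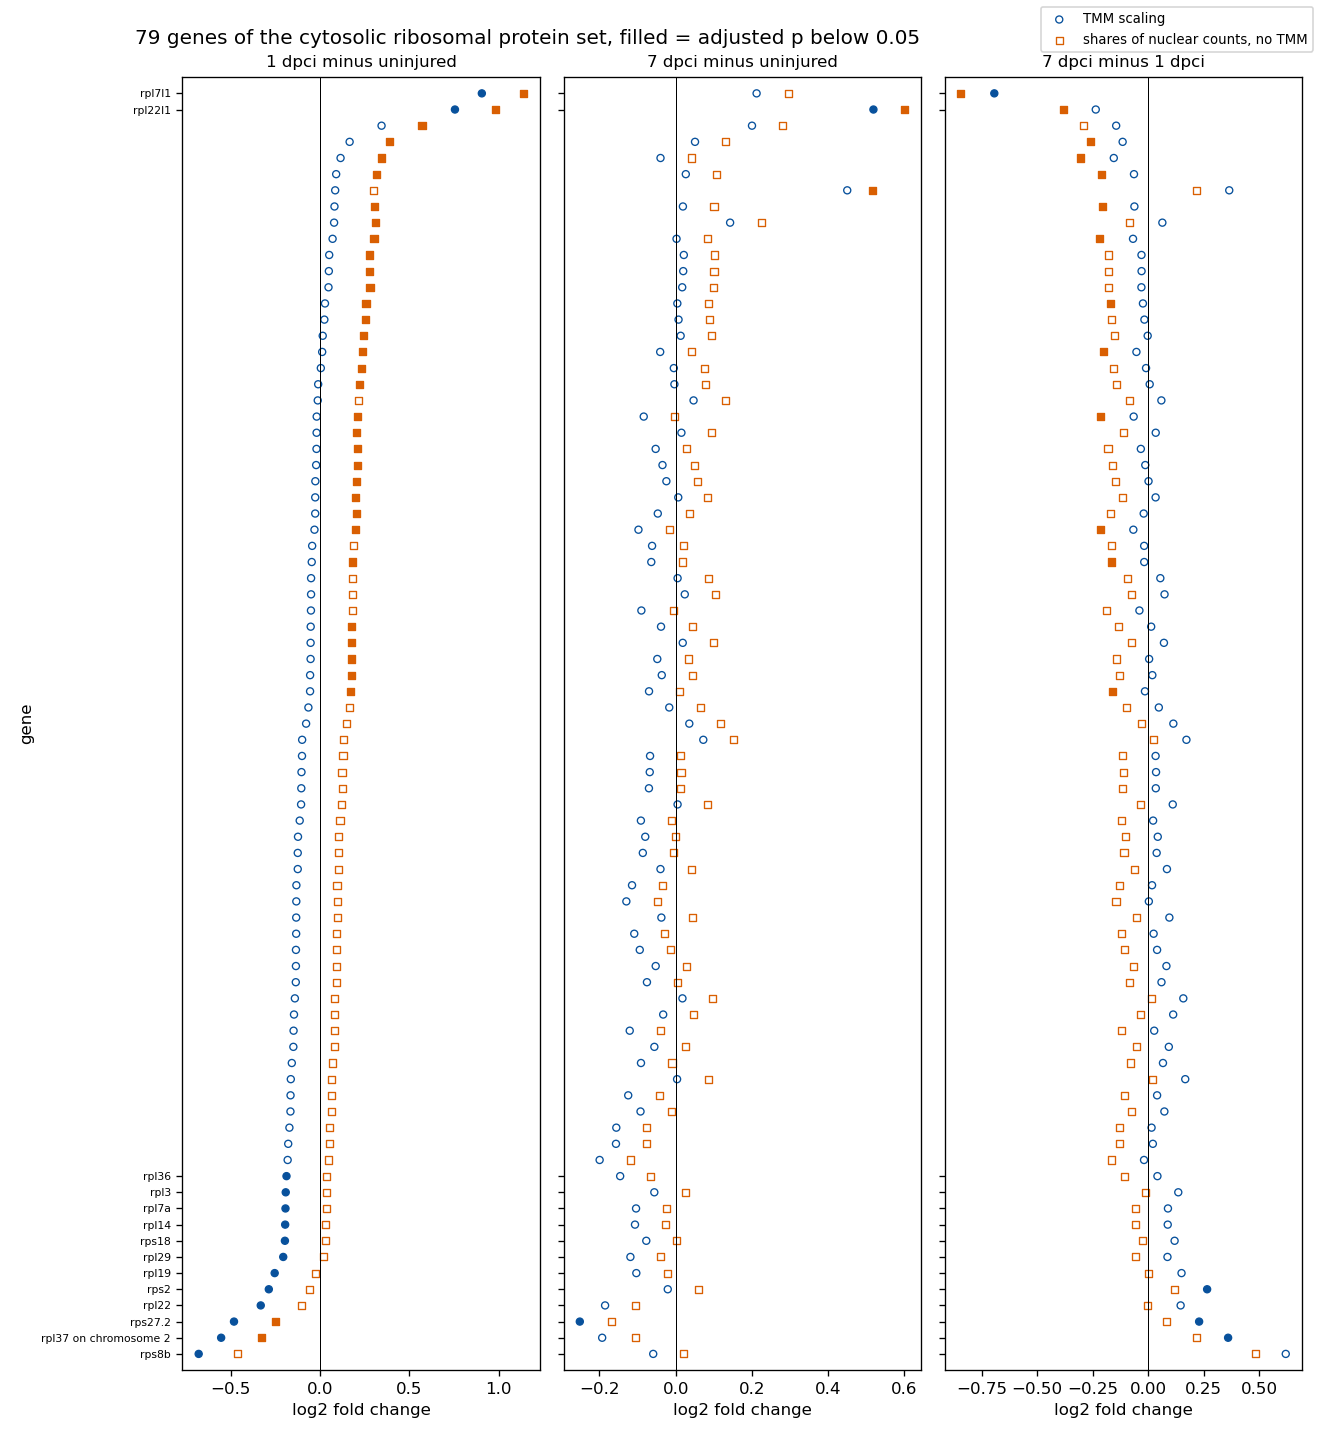
Log2 fold change (x axis) of each of the 79 genes (y axis, ordered by the first panel, with names for those called under TMM in any panel) for 3 stage comparisons over 7 strains, under TMM scaling (circles) and as shares of nuclear counts (squares), with filled symbols at an adjusted p below 0.05. At 1 dpci the circles of 61 genes lie below 0 and the squares of 73 genes above it, whereas rpl22l1, rpl7l1, rps27.2 and rpl37 on chromosome 2 are filled on the same side under both.

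**Figure D2:**
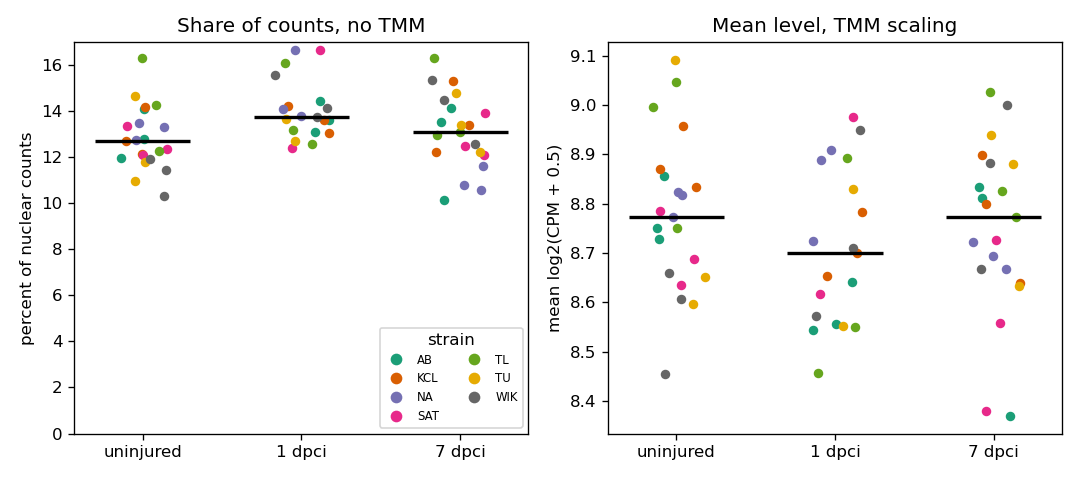
Each point is 1 library, colored by strain, and bars are medians by stage. The left panel gives the percent of nuclear counts taken by the 79 genes, with medians of 12.7, 13.8 and 13.1%, and the right panel gives the mean of log2(CPM + 0.5) over the same genes after TMM scaling, with medians of 8.77, 8.70 and 8.77, so that the 1 dpci ventricles stand highest on the left and lowest on the right.

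rpl22l1 (ENSDARG00000010244, GRCz11 chromosome 24, 26475182 to 26479841) encodes the paralog of the large subunit protein Rpl22. Its lowest, median and highest levels were 48.3, 84.3 and 176 CPM in uninjured, 104, 158 and 238 CPM in 1 dpci and 70.8, 123 and 227 CPM in 7 dpci ventricles. The groups overlapped, but all 19 ventricles at 1 dpci lay above the uninjured median. rpl22l1 rose in 1 dpci against uninjured ventricles by 0.75 ± 0.12 on the log2 scale (SE, edgeR adjusted p = 1.1e-06), with all 7 strains higher. It was still higher at 7 dpci than in uninjured ventricles, by 0.52 ± 0.12 (SE, edgeR adjusted p = 0.0020), in 6 of 7 strains. Within single strains, 4.97% of all tests were called at 1 dpci and 1.33% at 7 dpci. At 1 dpci, rpl22l1 was called higher in WIK, by 1.47, beside 6.24% of all genes called in that strain. In the libraries labelled NA it was called higher by 1.24, beside 11.1% of all genes. That change is set against uninjured libraries whose strain is in doubt. At 7 dpci rpl22l1 was called higher in WIK, by 1.57, beside 0.651% of all genes.

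rpl22 (ENSDARG00000070437, chromosome 11, 29650011 to 29658396) moved the other way under TMM. It had 550, 634 and 804 CPM as its lowest, median and highest level in uninjured, 396, 495 and 640 CPM in 1 dpci and 460, 569 and 684 CPM in 7 dpci ventricles. It fell at 1 dpci by 0.33 on the log2 scale (SE 0.07, edgeR adjusted p = 6.9e-05), in all 7 strains. As a share of nuclear counts its change was -0.10 and was not called (adjusted p = 0.21).

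A ratio of paralogs within a library does not depend on how libraries are scaled. The count of rpl22l1 relative to rpl22 had a lowest, median and highest value of 0.0843, 0.144 and 0.232 in uninjured, 0.210, 0.327 and 0.485 in 1 dpci and 0.124, 0.214 and 0.409 in 7 dpci ventricles. Only the ends of the uninjured and 1 dpci ranges overlapped. With strains weighted equally, the log2 ratio was higher by 1.098 at 1 dpci than in uninjured ventricles (permutation test within strains, p = 1e-05, the smallest that 100000 resamples can give, adjusted p = 0.00018 over 18 tests of 6 pairs), and higher in 7 of 7 strains. The ratio remained higher at 7 dpci than in uninjured ventricles, by 0.71 (permutation adjusted p = 0.00018), in 6 of 7 strains, and was lower at 7 than at 1 dpci by 0.39 (permutation adjusted p = 0.0017).

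rpl7l1 (ENSDARG00000042864, chromosome 20, 36675083 to 36679233) is named as a relative of the large subunit protein gene rpl7 and was scarce. Its lowest, median and highest levels were 2.59, 5.79 and 10.8 CPM in uninjured, 4.76, 9.49 and 21.6 CPM in 1 dpci and 3.73, 6.89 and 12.2 CPM in 7 dpci ventricles. The ranges overlapped at all stages. It rose at 1 dpci by 0.90 ± 0.16 on the log2 scale (SE, edgeR adjusted p = 5.8e-06), in 6 of 7 strains, and was lower at 7 than at 1 dpci by 0.69 in all 7 strains (edgeR adjusted p = 0.00043). Its log2 ratio to rpl7 was higher at 1 dpci than in uninjured ventricles by 0.97 (permutation adjusted p = 0.00018), in 7 of 7 strains, and lower at 7 than at 1 dpci by 0.65 (permutation adjusted p = 0.00054). At 7 dpci against uninjured ventricles the difference was 0.32 (permutation adjusted p = 0.12).

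rps27.2 (ENSDARG00000055475, chromosome 16, 23788616 to 23800484) and rps27.1 (chromosome 19, 8743260 to 8748571) both encode the small subunit protein Rps27. rps27.2 had 465, 631 and 973 CPM as its lowest, median and highest level in uninjured, 348, 443 and 589 CPM in 1 dpci and 348, 542 and 737 CPM in 7 dpci ventricles. It fell at 1 dpci by 0.48 on the log2 scale (SE 0.08, edgeR adjusted p = 2.3e-06), in all 7 strains, and was lower at 7 dpci than in uninjured ventricles by 0.25 (edgeR adjusted p = 0.033), also in all 7 strains. The call at 7 dpci was lost as a share of nuclear counts (-0.17, edgeR adjusted p = 0.14), without the 6 libraries of conflicting time (edgeR adjusted p = 0.076), with no filter on low counts (0.083), and without AB, KCL, SAT or WIK. rps27.1 had a change of -0.13 at 1 dpci and was not called. The log2 ratio of rps27.2 to rps27.1 was lower at 1 dpci than in uninjured ventricles by 0.34 (permutation adjusted p = 0.00054), in 6 of 7 strains, and lower at 7 dpci by 0.16 (permutation adjusted p = 0.025), in 5 of 7. At 7 against 1 dpci it was higher by 0.18 (permutation adjusted p = 0.048), a call that was lost without the 6 libraries of conflicting time and in most cases when 1 fish was left out. The call at 7 dpci against uninjured ventricles was lost without 1 uninjured TL fish or 1 uninjured NA fish.

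rps27l (ENSDARG00000100513, chromosome 25) is another relative of that family. Its log2 ratio to rps27.1 was higher at 7 dpci than in uninjured ventricles by 0.61 (permutation adjusted p = 0.0066). The level of rps27l itself did not pass the test at 7 dpci under TMM (log2 fold change 0.45, edgeR adjusted p = 0.084), and was called as a share of nuclear counts (0.52, edgeR adjusted p = 0.047). The pairs rpl5b with rpl5a and rps26l with rps26 gave log2 ratio differences of 0.05 and -0.01 at 1 dpci and 0.08 and 0.05 at 7 dpci against uninjured ventricles, none of which passed. rps8b, at a mean of 8.74 counts per library, was under the minimum of 10 counts set for ratios. Reads of near-identical paralogs can be split by the counting, which was not tested.

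**Figure D3:**
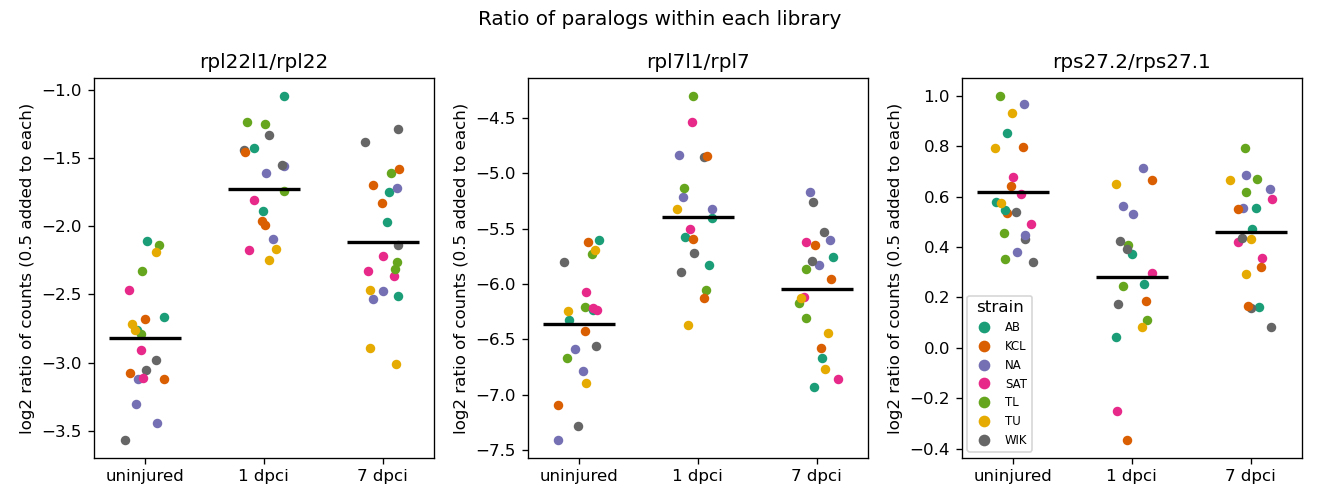
Log2 ratio of the counts of 2 paralogs within each library (y axis, 0.5 added to each count) by stage, colored by strain, with bars at the mean over strains. The rpl22l1 to rpl22 ratio is higher by 1.098 and the rpl7l1 to rpl7 ratio by 0.97 at 1 dpci than in uninjured ventricles, while the rps27.2 to rps27.1 ratio is lower by 0.34.

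rpl37 on chromosome 2 (ENSDARG00000076360) fell at 1 dpci by 0.55 on the log2 scale (SE 0.13, edgeR adjusted p = 0.00063), in all 7 strains, with median levels of 9.60, 6.37 and 8.37 CPM in uninjured, 1 dpci and 7 dpci ventricles. As a share of nuclear counts its change was -0.32, close to the threshold (edgeR adjusted p = 0.049). The abundant namesake on chromosome 21 had a change of -0.16 under TMM (edgeR adjusted p = 0.066). The remaining 8 genes called lower at 1 dpci under TMM, from rps2 at -0.29 to rpl36 at -0.19, were rps2, rpl19, rpl29, rps18, rpl14, rpl7a, rpl3 and rpl36, together with rps8b at -0.68, which was lower in 3 of 7 strains only. None of these 9 was called with shares of nuclear counts. Leaving out single strains moved the count of 14 in both directions, to 6 without TL, 9 without AB and 21 without WIK, where 19 were lower. Leaving out 1 TU fish at 1 dpci, the one that lay nearest to NA, also gave 9. No share over all genes stands beside these counts.

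At 7 dpci the set was close to its uninjured level. In 7 dpci against uninjured ventricles, 2 of 79 genes (2.53%) were called, rpl22l1 higher and rps27.2 lower, beside 6.2% of all genes, 4.48% higher and 1.72% lower. Both were called without NA and TU, and neither without WIK. As shares of nuclear counts rps27l was called in place of rps27.2. In 7 against 1 dpci, 4 genes were called beside 22.9% of all genes (10.5% higher and 12.4% lower), with rps2 higher by 0.27, rps27.2 by 0.23 and rpl37 on chromosome 2 by 0.36, and rpl7l1 lower. Without NA and TU the other 3 were called and rpl37 on chromosome 2 was not (0.29, edgeR adjusted p = 0.21). Its call was also lost without AB, KCL, NA or WIK alone, and that of rps27.2 without AB, KCL, SAT, TL or TU. As shares of nuclear counts, 13 genes were called lower and 0 higher in that comparison, beside 17.4 and 6.49% of all genes, and rpl7l1 was the only one of the 4 called under both scalings.

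The genes that build ribosomes moved more than the ribosomal protein genes themselves. The list of 48 measured ribosome biogenesis genes holds assembly factors and also subunits and factors of RNA polymerase I. Of the 48, 34 were higher and 3 lower in 1 dpci against uninjured ventricles. Over all genes, 16.2% were higher and 12.1% lower. The median log2 fold change was 0.62 for the list, against 0.07 for all genes and -0.08 for the ribosomal proteins. npm1a, a nucleolar chaperone, had median levels of 37.9, 82.3 and 33.2 CPM in uninjured, 1 dpci and 7 dpci ventricles and rose by 1.13. dkc1, the pseudouridine synthase of the nucleolus, rose by 1.22, fbl, the rRNA methyltransferase, by 1.04, and ncl, nucleolin, by 0.61. The 3 lower genes were ddx21, a nucleolar helicase, at -0.63, ubtf, a factor of RNA polymerase I, at -0.32, and nob1, at -1.20. In 7 against 1 dpci, 35 of the 48 genes were lower and 2 higher, beside 12.4% of all genes lower and 10.5% higher. In 7 dpci against uninjured ventricles 0 of the 48 were higher and 1 lower, with a list median of -0.03. Over all genes, 4.48% were higher and 1.72% lower there. The median of the list at 1 dpci was 0.85 with shares of nuclear counts and 0.67 without NA and TU, and -0.23 with the RUVg factor, under which none was called.

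**Figure D4:**
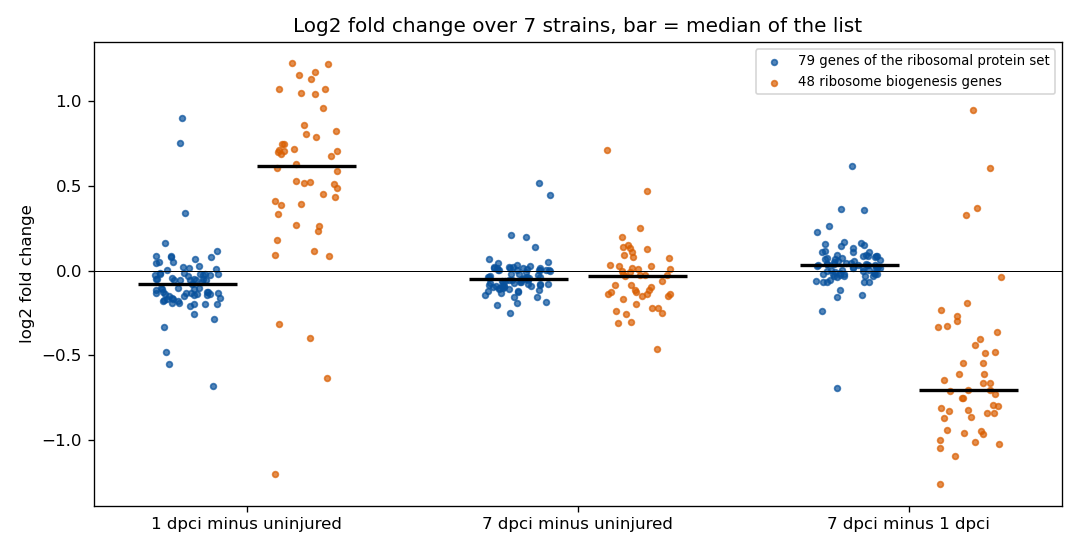
Log2 fold change (y axis) of the 79 genes and of 48 ribosome biogenesis genes in 3 stage comparisons, with bars at the median of each list. At 1 dpci the biogenesis genes have a median of 0.62 and the ribosomal protein set one of -0.08, and in 7 against 1 dpci the medians are -0.70 and 0.03.

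Some ribosomal proteins carry other names. Among those reported here, rplp2l rose at 1 dpci by 0.46 and rplp2 fell by 0.40, while rplp0, rplp1, faua, faub and rack1 were not called. rplp2l and rplp2 both encode the acidic stalk protein P2, so that these paralogs, like rpl22l1 and rpl22, were called in opposite directions under TMM. Of 40 translation factors 10 were higher and 13 lower at 1 dpci, with a median of -0.16, and of 74 genes of the mitochondrial ribosome 1 was higher and 13 were lower, beside 16.2% of all genes higher and 12.1% lower.

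How many ribosomal protein genes differed between strains depended on the test. The edgeR test among 7 strains called 3 genes in uninjured ventricles (3.8%), beside 13.1% of all genes. It called 3 at 1 dpci, beside 11.4%, and 4 at 7 dpci, beside 13.5%. The DESeq2 test called 14 genes in uninjured ventricles, 10 at 1 dpci and 16 at 7 dpci, with no share over all genes to set beside them. In the edgeR test, rps26 was the single gene called at every stage. The others were rps18 and rps19bp1 in uninjured ventricles, rpl9 and rpl27 at 1 dpci, and rps27l, rps23 and rpl37 on chromosome 21 at 7 dpci. With 1 fish left out, the adjusted p of rps26 reached 0.19, 0.058 and 0.071 at the 3 stages (edgeR). It reached 0.052 for rps18, 0.091 for rps19bp1 and 0.13 for rpl27. For rps27l, rps23 and rpl37 on chromosome 21 it reached 0.11, 0.10 and 0.086. Only rpl9 kept its call throughout, with a highest adjusted p of 0.020 (edgeR).

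rps26 (ENSDARG00000037071, chromosome 23, 27675581 to 27677516), a small subunit protein, was highest on average in KCL. The 3 KCL fish had 899, 455 and 343 CPM uninjured, 403, 816 and 437 CPM at 1 dpci and 365, 441 and 595 CPM at 7 dpci. The other 6 strains averaged 276, 267 and 267 CPM at those stages. Most WIK fish lay above the lowest KCL fish uninjured and at 7 dpci. KCL was higher than the other 6 strains by 1.05 ± 0.18 uninjured, 1.07 ± 0.18 at 1 dpci and 0.83 ± 0.18 at 7 dpci on the log2 scale (SE, edgeR adjusted p = 0.00019, 0.00011 and 0.0055). The size rested in part on 1 fish at each of the first stages. Without the fish at 899 CPM the difference in uninjured ventricles was 0.54 (edgeR adjusted p = 0.25), and without the fish at 816 CPM the difference at 1 dpci was 0.65 (edgeR adjusted p = 0.12). The paralog rps26l showed no such pattern, with 682, 646 and 584 CPM in uninjured KCL fish.

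**Figure D5:**
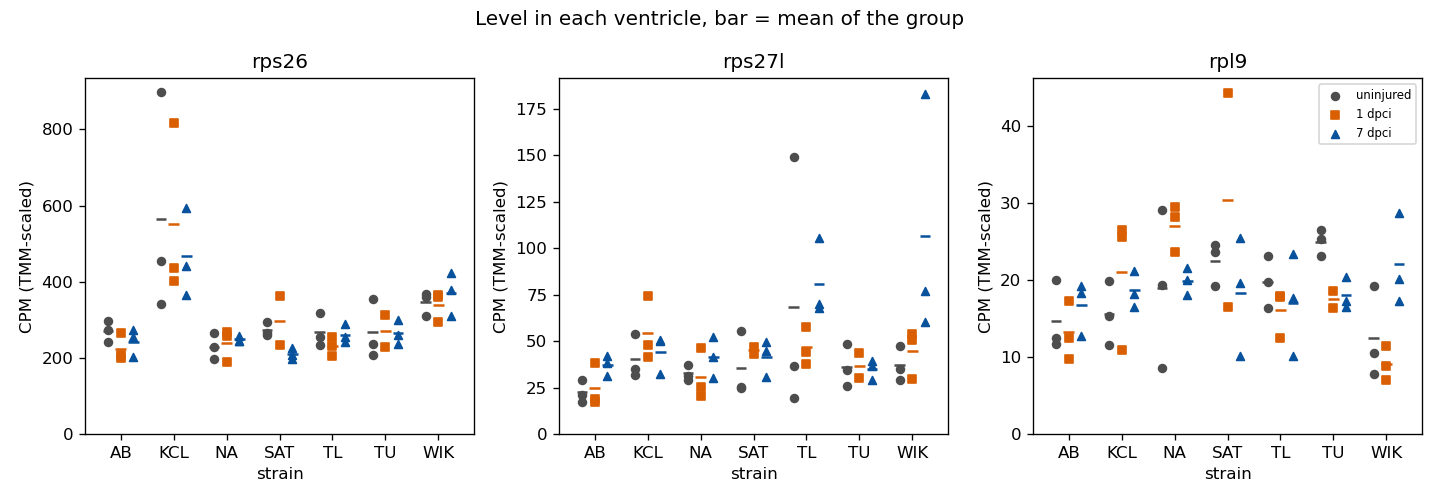
CPM (y axis) of rps26, rps27l and rpl9 in each ventricle by strain and stage, with bars at group means. The KCL mean of rps26 stands above those of the other strains at each stage, while KCL and WIK fish overlap uninjured and at 7 dpci. Single KCL fish lie at 899 and 816 CPM, and the rps27l values of 149 CPM in TL and 183 CPM in WIK are single fish.

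Counting genes past 2-fold in 1 strain against the other 6, 6 of 1659 tests were called, beside 2.33% of all such tests over all genes. Beside rps26 in KCL at 2 stages, they were rps27l in uninjured TL, by 1.02, and in WIK at 7 dpci, by 1.251, and rpl9 and rps8b in WIK at 1 dpci, by -1.13 and -2.13. The 3 uninjured TL fish had 36.4, 149 and 19.4 CPM of rps27l, and without the fish at 149 CPM the difference turned to -0.29. The WIK fish at 7 dpci had 183, 60.2 and 77.0 CPM of rps27l, and without the first the difference was 0.63 (edgeR adjusted p = 0.45). rpl9 had 11.4, 8.79 and 7.04 CPM in WIK at 1 dpci, against a mean of 20.9 CPM in the other strains. rps8b had 0.172, 1.07 and 0.172 CPM there, at or near 1 count in the lowest libraries. Both lost their call when 1 of 2 WIK fish was left out. Neither was called without the 6 libraries of conflicting time (edgeR adjusted p = 0.05005 for rpl9 and 0.25 for rps8b).

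Smaller strain differences stood in abundant genes. Without a minimum fold, 16 of the 1659 tests were called (2.93% over all genes). rps18 in uninjured WIK fish was at 767, 749 and 771 CPM, below every other uninjured fish, and differed from the other strains by -0.50 (edgeR adjusted p = 0.024). rpl27 was at 618, 624 and 705 CPM in AB at 1 dpci, below every fish of the other strains, and differed by -0.60 (edgeR adjusted p = 0.014). It differed by -0.50 in AB at 7 dpci as well (edgeR adjusted p = 0.045). rpl4 at 338, 419 and 401 CPM was low in the uninjured fish labelled NA, a group whose strain is in doubt.

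The interaction test, of whether the change after injury differed between strains, called 0 of the 79 genes. It called so few of all genes that 0 of 79 lies close to their share. For 1 dpci against uninjured ventricles 0 of 79 passed, beside 1.78% of all genes. An unadjusted p below 0.05 was found for 9 of 79, beside 12.9% of all genes. For 7 dpci 0 of 79 passed, beside 3.52%, and 5 had an unadjusted p below 0.05, beside 16% of all genes. The DESeq2 test called 2 and 3 of the 79 genes, with no share over all genes to set beside them. These tests and the changes within strains set later NA and TU ventricles against uninjured ones whose strain is in doubt. Without NA and TU 0 genes passed at either stage. The lowest p-values were those of rpl4, rps8b and rpsa at 1 dpci, with edgeR adjusted p of 0.096, 0.18 and 0.29, and of rpl22l1, rpl4 and rps12 at 7 dpci, with edgeR adjusted p of 0.060, 0.071 and 0.15. rpl4 changes in the libraries labelled NA and TU had opposite signs, at 0.58 and -0.43 at 1 dpci and 0.48 and -0.54 at 7 dpci against uninjured ventricles, and without those strains its adjusted p was 0.76 at 1 dpci and 0.89 at 7 dpci (edgeR). Without those strains rpl22l1 had an edgeR adjusted p of 0.54 at 7 dpci. With all strains, rpl22l1 passed at 7 dpci under 3 other edgeR settings. Its adjusted p was 0.031 with at least 1 CPM in 10 libraries, 0.00079 with no filter and 0.049 with shares of nuclear counts (edgeR). Within single strains, the median log2 fold change of the 79 genes at 1 dpci ran from -0.33 in TL to 0.17 in WIK, and at 7 dpci from -0.17 in KCL to 0.26 in WIK, with -0.18 in the libraries labelled NA. Uninjured WIK ventricles had the lowest mean level of the set at that stage, at 8.57 ± 0.11 on the log2 CPM scale, and uninjured TL ventricles the highest, at 8.93 ± 0.16 (SD, n = 3 each).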

How the data were processed

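Single ventricles were sequenced as QuantSeq 3′ libraries. The authors trimmed reads with Trim Galore 0.6.4, then aligned and counted them with STAR 2.7.6a against GRCz11. The deposited counts are whole reads per gene without normalization, for 32520 genes. The deposited log2 values, made by the authors for 16890 genes, run from 1.83 to 4.46 and look as if logged more than once. They chose the genes tested and served as an alternative for paralog ratios.

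Tests on the counts used edgeR 4.0.16 under R 4.3.3 (a filter of 1 CPM in 1 library, TMM, trended dispersion, glmQLFit with 1 mean for each of 21 groups over 61 libraries), with Benjamini-Hochberg adjustment over 16890 genes and calls at an adjusted p below 0.05. CPM are TMM-scaled over all counts, mitochondrial ones included. Paralog ratios were compared by a two-sided permutation test of stage labels within strains (100000 resamples, Python 3.11.15, numpy 2.4.6). The code was tested on simulated data. DESeq2 1.42.0 was an alternative. Figures used matplotlib 3.10.9. P-values of edgeR set a difference against the spread between fish of a group. Those of the permutation test set it against shuffled stage labels within strains. Neither set a stage difference against the spread between strains.

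The genes and lists were chosen with earlier results of these data known. Genes were named by rule: the 4 largest called changes in each direction per stage comparison, the 5 lowest p per strain test, the 3 lowest per interaction, those past 2-fold in a strain, the paralogs, and the 5 highest and lowest in level. The biogenesis and other genes outside the set were named after their values were seen. Shares of nuclear counts, and ratios from 2 to the power of the deposited values, were alternatives added after the data had been seen. Values of a few single genes are not reported here.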

Additional observations from a re-analysis of the deposited data

How the results depend on the processing

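Of 79 genes, the number called in 1 dpci against uninjured ventricles (14) became 0 with 1 RUVg factor, 22 with the DESeq2 test, 25 with at least 1 CPM in 10 libraries, 8 with no filter on low counts, 34 with shares of nuclear counts, 9 without AB, 6 without TL and 21 without WIK, and lay between 9 and 20 when 1 fish was left out. In 7 dpci against uninjured ventricles (2) it became 0 with the RUVg factor and without WIK, 1 without the 6 libraries of conflicting time and without AB, KCL or SAT, and 4 without TU, and lay between 1 and 3 with 1 fish left out. In 7 against 1 dpci (4) it became 0 with the RUVg factor, 8 with the DESeq2 test or the stricter filter and 13 with shares, and lay between 3 and 7 with 1 fish left out. Over all genes, the main fit called 4772, 1047 and 3872 in these 3 comparisons. The RUVg factor gave 64, 642 and 81, and shares gave 5098, 1120 and 4033. For the other settings the counts stand without a share over all genes. A change in the set cannot be told there from a change in calls over all genes. Shares turned the median log2 fold change of the set to 0.15, 0.036 and -0.11 in these comparisons. The RUVg factor left 0 ribosome biogenesis genes called. At 1 dpci against uninjured ventricles it turned rpl7l1 to -0.36, rps8b to 0.027 and rpl37 on chromosome 2 to 0.031. There it left rpl22l1 at 0.031, rps27.2 at -0.10 and rpl22 at -0.32. At 7 dpci against uninjured ventricles it left rpl22l1 at 0.36 and rps27.2 at -0.17. At 7 against 1 dpci it turned rpl37 on chromosome 2 to -0.10, rps27.2 to -0.070 and rpl7l1 to 0.31, and left rps2 at 0.12. None of these was called. The cause was not tested, beyond the share of the factor that lies between stages. With 1 fish left out, 28 to 36 biogenesis genes were higher at 1 dpci and 33 to 39 lower at 7 against 1 dpci.

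Among strains, uninjured ventricles gave 6 called genes with the RUVg factor, 14 with the DESeq2 test and 7 with the stricter filter, and 1 to 5 with 1 fish left out. With the fish number as a replicate block, fitted on uninjured libraries alone, 0 were called, against 2 in the same libraries with no block. The numbers come from the titles and nothing says that they pair fish. At 1 dpci 10 were called with the DESeq2 test and 2 to 4 with 1 fish left out, and at 7 dpci 16 with the DESeq2 test, 7 with the stricter filter, 8 with shares, 2 without the 6 libraries and 2 to 6 with 1 fish left out. Interactions gave 2 and 3 genes with the DESeq2 test, 1 and 2 with the stricter filter, and at 7 dpci 1 with no filter, 2 with shares and 0 to 1 with 1 fish left out. No share over all genes stands beside these strain and interaction counts. Tests past 2-fold in a strain numbered 4 to 7 with 1 fish left out, where only that fish's strain was refitted. rps27l in uninjured TL ran from -0.29 to 1.48.

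The log2 ratio of rps27.2 to rps27.1 at 7 against 1 dpci was 0.19 without the 6 libraries and not called, 0.023 from the deposited values as they stand, on their own scale, also not called, and 0.14 to 0.22 with 1 fish left out. At 7 dpci against uninjured ventricles it was -0.18 to -0.13 with 1 fish left out. The ratio of rps27l to rps27.1 was 0.20 to 0.40 at 1 dpci against uninjured ventricles and 0.25 to 0.38 at 7 against 1 dpci with 1 fish left out, past the threshold in some cases. That of rps26l to rps26 at 1 dpci against uninjured ventricles turned to 0.038 without NA and TU and was -0.063 to 0.021 with 1 fish left out, and that of rpl5b to rpl5a at 7 against 1 dpci was -0.017 to 0.069, none of them called. The rpl22l1 to rpl22 ratio kept its direction and call in all 3 comparisons, and the rpl7l1 to rpl7 ratio in both comparisons with 1 dpci, under every alternative run. The RUVg factor was not applied to ratios.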

Other observations

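Of 16 measured genes that act on the translation of ribosomal protein mRNAs, 4 were higher and 4 lower in 1 dpci than in uninjured ventricles, beside 16.2% of all genes higher and 12.1% lower. The median log2 fold change of the list was -0.12, against 0.07 over all genes, so the list had no common direction. Not all of the called genes are named. mtor, the kinase at the head of the pathway, rose by 0.63. eif4ebp1 and eif4ebp3l, which encode inhibitors of cap-dependent translation that the mTOR kinase switches off, fell by 0.73 and 0.71, and both were still lower at 7 dpci, by 0.37 and 0.61. mycb and mycn, transcription factors of the Myc family, fell by 0.63 and 0.88 at 1 dpci, and mycn was higher at 7 than at 1 dpci by 1.30 (edgeR adjusted p = 3.4e-07).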
